A study of Mus musculus with 12 samples.

Results

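The genes of 10 major plasma proteins of the fetal hepatocyte were described (Alb, Afp, Ttr, Ahsg, Fetub, Ambp, Gc, Vtn, Itih1 and Itih2). The members were listed by gene symbol, with no measured value in the rule though earlier results of these data were known, and all 10 had a row among the 30743 rows of the table. Whole livers of male C57BL/6J mouse fetuses were sequenced as polyA-selected RNA at 15 ± 0.5 days post coitum (dpc). The control group held 6 livers from dams fed a 13.5 kcal% fat diet, and the HFD group held 6 livers from dams fed a 60 kcal% high-fat diet. Both groups of dams had been on their diets for 12 to 14 weeks, and the fetuses themselves carried no allele or agent named by the labels. The number of litters behind each group was not given by the sample labels. The study asked how maternal obesity and HFD change gene expression in the fetal liver. The table gives 1 level per gene, averaged by the authors over all 12 livers of both diets, as log2 CPM. The CPM is taken here as the number of reads of a gene in every 1000000 reads assigned to the rows of the table. Values of single livers were not analysed here, so no level below has an SD. For the same reason the diets were not compared, and no order of genes could be set against the spread between livers.

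Hepatocytes make most proteins of the blood plasma, and the fetal liver takes up this task while it is also the main site of blood formation. Albumin, alpha-fetoprotein and vitamin D binding protein (Gc) are relatives that carry hormones, fatty acids and other small molecules. Alpha-fetoprotein is the typical plasma protein of the fetus and is replaced by albumin after birth. Fetuins, transthyretin, vitronectin and the chains of the inter-alpha-trypsin inhibitor are further products of hepatocytes that bind mineral, hormone, matrix or proteases. The visceral yolk sac also makes several of these proteins.

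Of the 10 genes, 8 lay among the most abundant transcripts of the fetal liver, each above 1000 CPM, and Fetub and Itih1 were listed with almost no reads. Over the whole table, 86 rows exceeded 1000 CPM. The summed CPM of the 10 genes was 13.5% of the summed CPM of all rows. Alb and Afp made up 86.8% of that sum, and the other 6 abundant genes together reached 17934 CPM.

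The start regions of Alb, Afp and Gc are shown because these 3 relatives are placed on 1 chromosome and Gc was at a far lower level than Alb and Afp. Alb and Afp also had the highest CPM of all rows, before any division by length. Each run is the 200 bases before the RefSeq transcription start (GRCm38.p6), written 5′ to 3′ on the strand of the gene. Capitals mark CAAAGT, the core of the site of the hepatocyte factor HNF4, on either strand, and, in Afp, the TATA box TATAAA.
Alb (chr5:90460670-90460869, plus strand): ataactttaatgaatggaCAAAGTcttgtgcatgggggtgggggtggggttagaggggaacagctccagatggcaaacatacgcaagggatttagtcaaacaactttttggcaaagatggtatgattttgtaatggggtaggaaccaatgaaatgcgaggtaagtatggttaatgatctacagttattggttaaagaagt
Afp (chr5:90490514-90490713, plus strand): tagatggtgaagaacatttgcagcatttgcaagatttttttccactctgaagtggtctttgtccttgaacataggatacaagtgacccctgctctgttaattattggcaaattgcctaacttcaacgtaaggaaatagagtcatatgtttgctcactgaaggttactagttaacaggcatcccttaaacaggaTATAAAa
Gc (chr5:89457899-89458098, minus strand): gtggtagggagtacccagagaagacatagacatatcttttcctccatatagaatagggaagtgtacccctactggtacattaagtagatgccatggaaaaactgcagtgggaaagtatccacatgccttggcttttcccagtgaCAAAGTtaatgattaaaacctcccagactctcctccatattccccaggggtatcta

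Searched on both strands over the 250 bases before the start, the HNF4 core CAAAGT was found in 6 of the 10 windows of the members (Alb, Gc, Vtn, Ahsg, Itih2 and 1 of the 2 windows for the 2 starts of Fetub), against 12.6% of 32851 RefSeq windows. Among the 55 windows of other genes above 1000 CPM, 2 held it (3.64%). With the members above 1000 CPM included, 7 of 62 windows held it (11.3%). The 10 member windows also include those of Fetub and Itih1, which were not above 1000 CPM, so the sets are unlike. The difference from the members was not tested. The core began 182 bases before the RefSeq start in Alb, 56 in Gc, 28 in Itih2 and 16 in Vtn. Ahsg held it at 2 places, 171 and 139 bases before that start. These starts are not always the first base of the gene in GENCODE, whose spans are given below. The RefSeq start of Ahsg lay 738 bases, that of Itih2 713 bases and that of Vtn 29 bases inside the span, because other transcripts begin further upstream, so that the matches in these 3 genes lie within the gene span. The RefSeq starts of these 3 genes were 22, 20 and 0 bases away from the start of the principal GENCODE transcript. In Alb and Afp the RefSeq start lay 27 and 23 bases upstream of the GENCODE start, so the bases directly before the latter are not in the runs shown. The FOXA core TGTTTAC was found in 1 member window, the second of Fetub, and in 3.17% of all windows. The C/EBP core TTGCGC was found in no member window and in 5.34% of all windows. The TATA box, searched on the sense strand in the last 50 bases, was found in 2 member windows (Afp and Fetub) and in 2.63% of all windows. The window of Ttr was not examined. A match is a run of letters and was not tested as a binding site. The HNF4 core was absent from the window of the abundant Afp, while Fetub, listed with 1 read, held it in 1 of its windows. The start of that Fetub window lay 1934 bases upstream of the start of the principal GENCODE transcript. The other Fetub start, whose window had no HNF4 core, lay 94 bases upstream of it.

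**Figure D1:**
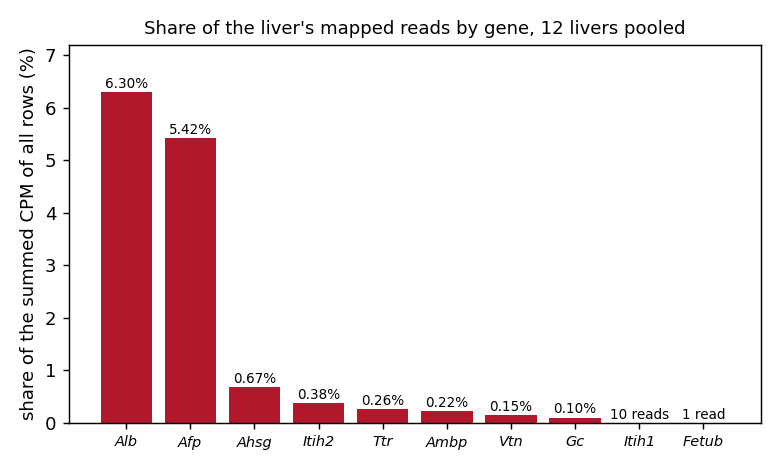
Share of the summed CPM of all rows (%, vertical axis) taken by each plasma protein gene (horizontal axis), as 1 average over 12 livers with no error available. Alb (6.30%) and Afp (5.42%) stand far above the other 8 genes, and Itih1 and Fetub have 10 reads and 1 read in place of a visible bar.

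Albumin and its relatives came first. Alb, the main carrier protein of adult plasma, was at 15.95 log2 CPM (63314 CPM) and held the first place of all rows. Afp followed in the second place at 15.73 log2 CPM (54525 CPM). The alpha-globin gene Hba-a2, the most abundant erythroid transcript listed, came directly after them with 49707 CPM. Relative to transcript length Hba-a2 was above both, at 89725 CPM per kilobase. It has a near-identical copy, so its own level is uncertain. The beta-globin rows Beta-s (44564 CPM), a synonym of Hbb-bs, and Hbb-b1 (24904 CPM) held places 4 and 5. Their levels per kilobase were not computed, but the Hbb-bs transcript has only 628 bases against 2034 for Alb. The lead of Alb and Afp over the globins was therefore shown for CPM only. Per kilobase of transcript, Alb reached 31128 CPM and Afp 26430 CPM, a ratio of 1.18. With no SD, whether this ratio exceeds the spread between livers was not tested. Gc, which carries vitamin D and binds actin, was at 9.98 log2 CPM (1010 CPM) in place 85, between Cfl1 and Ccna2. Its level per kilobase was 561 CPM, so that Alb was 55.5-fold and Afp 47.1-fold higher than Gc. Afm, the vitamin E binding relative, was lower again at 17.3 CPM per kilobase, and Gc was listed 32.5-fold above it.

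Alb, Afp, Afm and Gc all lie on chromosome 5 (GRCm38, GENCODE M21). Alb runs from 90460897 to 90476602 and Afp from 90490737 to 90508907 on the same strand, with 14.1 kb between them. Afm begins 10.0 kb after the end of Afp. Gc runs from 89417522 to 89457898 on the other strand, 1003 kb before Alb. Thus the genes at the first and second place of all rows were direct neighbours in the genome, and the next gene of the cluster was listed 1801-fold below Alb per kilobase. No 50-base window of the Alb, Afp or Gc transcript occurred in a transcript of another gene. The coding sequences of Alb and Afp were identical at 57.9% of 1755 aligned bases, with 11 bases as the longest identical run. The span of Afp, introns included, overlaps that of the antisense gene Gm43449 over 9820 bases, and the library kit does not mark the strand. No 50-base window of the Afp transcript occurred in a transcript of Gm43449. Gm43449 had no row in the table.

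Ahsg and Fetub encode fetuin-A and fetuin-B, cystatin-like plasma proteins of which the first binds calcium phosphate mineral and the second inhibits the egg coat protease ovastacin. Ahsg was at 12.73 log2 CPM (6781 CPM) in place 9, between Rn45s and Eef1a1. Fetub was at -2.66 log2 CPM, against -2.71 for the 11091 rows without reads. That difference equals 1 read over all 12 livers (exact Poisson 95% interval from 0.0253 to 5.57 reads), and 76 rows shared the level of Fetub. The 2 genes lie on chromosome 16 on the same strand, Ahsg from 22891277 to 22899449 and Fetub from 22918334 to 22939778, with 18.9 kb between them. Their coding sequences were identical at 60.6% of 972 aligned bases. Ahsg shared 14 of 1435 windows of 50 bases with the antisense gene Gm30505, which had no row, and Fetub shared none with any gene.

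Further members of the cystatin superfamily were at levels between those of the fetuins. Kng1, a kininogen, reached 87.4 CPM per kilobase, Kng2 10.4 and the histidine-rich glycoprotein gene Hrg, which follows Fetub on the chromosome after 11.3 kb, 5.48. Ahsg, at 4570 CPM per kilobase, was 52.3-fold above Kng1. Of the 5 genes of this family, 4 were above 1 CPM and 1, Ahsg, was above 1000 CPM. Kng1 and Kng2 resemble each other closely in sequence, so their separate levels are uncertain.

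**Figure D2:**
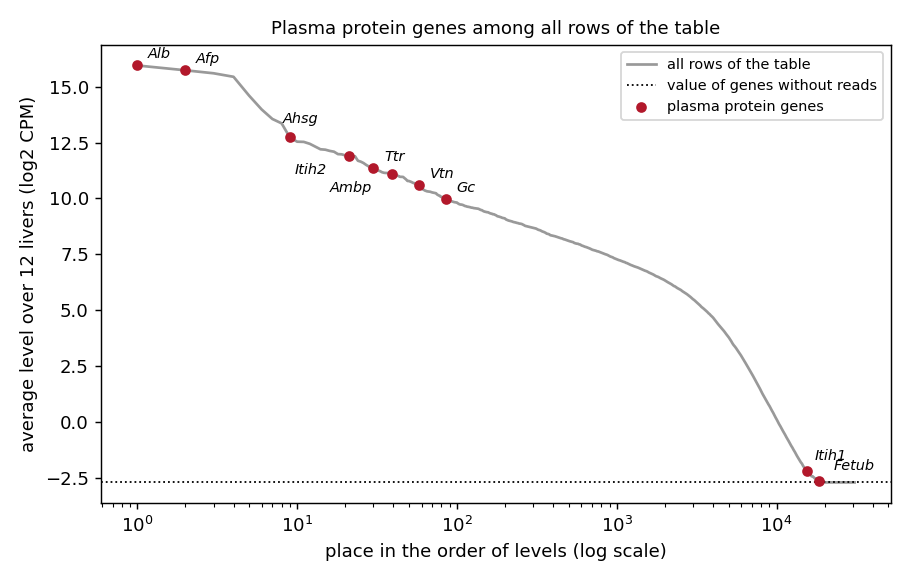
Average level (log2 CPM, vertical axis) against the place in the order of all 30743 rows (horizontal axis, log scale), with the plasma protein genes as red points and the value of genes without reads as a dotted line. Alb and Afp open the order, 8 genes lie within the first 85 places, and Itih1 (place 15541) and Fetub (place 18485, shared) lie next to the dotted line.

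The inter-alpha-trypsin inhibitor is built from bikunin, cut from the precursor that Ambp encodes together with alpha-1-microglobulin, and from heavy chains encoded by the Itih genes, which bikunin carries on its chondroitin sulfate chain and which can be passed on to hyaluronan of the matrix. Ambp was at 11.09 log2 CPM (2187 CPM) in place 39, directly above Gm10222. Itih2 was at 11.90 log2 CPM (3815 CPM), between Serpina6 and Eef2. Per kilobase the order turned, with 1725 CPM for Ambp and 1231 CPM for Itih2, because the Itih2 transcript has 3100 bases and that of Ambp 1268. Itih3, a heavy chain gene outside the 10, reached 555 CPM per kilobase, and Itih2 was 2.22-fold above it.

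Itih1, the other heavy chain among the members, was at -2.21 log2 CPM. This corresponds to 10 reads over all 12 livers (exact Poisson 95% interval from 4.80 to 18.4 reads), in place 15541 between AB336698 and Mr1. Itih4 was listed without reads, and Itih5, which is not typical of the liver, was at 9.41 CPM per kilobase. Of the 6 genes of the family, 3 were above 1000 CPM (Ambp, Itih2 and Itih3) and 2 had 10 reads or fewer (Itih1 and Itih4). Itih4, Itih3 and Itih1 follow each other on chromosome 14, with gaps of 6.22 and 5.42 kb, and Itih1 runs from 30929180 to 30943289. Itih2 lies on chromosome 2 from 10094593 to 10131396 and Ambp on chromosome 4 from 63143275 to 63154799. The coding sequences of Itih1 and Itih3 were identical at 66.5% of 2607 aligned bases, with 27 bases as the longest identical run. No 50-base window of Itih1 occurred in another gene.

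Ttr encodes transthyretin, which carries thyroxine and, bound to the retinol binding protein Rbp4, vitamin A. It was at 11.34 log2 CPM (2590 CPM) in place 30, between Serinc3 and Actb. Per kilobase its level was 2184 CPM, below Ahsg and above Ambp. Rbp4, its partner in plasma, was at 10.7 CPM per kilobase, and the thyroxine binding globulin gene Serpina7 had 58 reads over all 12 livers. Ttr lies on chromosome 18 from 20665280 to 20674321. With a coding sequence of 441 of its 1186 transcript bases, Ttr was the member whose level depended most on the length used, at 5873 CPM per coding kilobase.

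Vtn encodes vitronectin, an adhesion protein that also holds the plasminogen activator inhibitor in its active form. It was at 10.60 log2 CPM (1550 CPM) in place 58, between Calr and Trak2, and at 889 CPM per kilobase. Hpx, the heme carrier hemopexin, which shares repeats with vitronectin, was at 538 CPM per kilobase, so that Vtn was 1.65-fold higher. Vtn lies on chromosome 11 from 78499091 to 78502324.

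**Figure D3:**
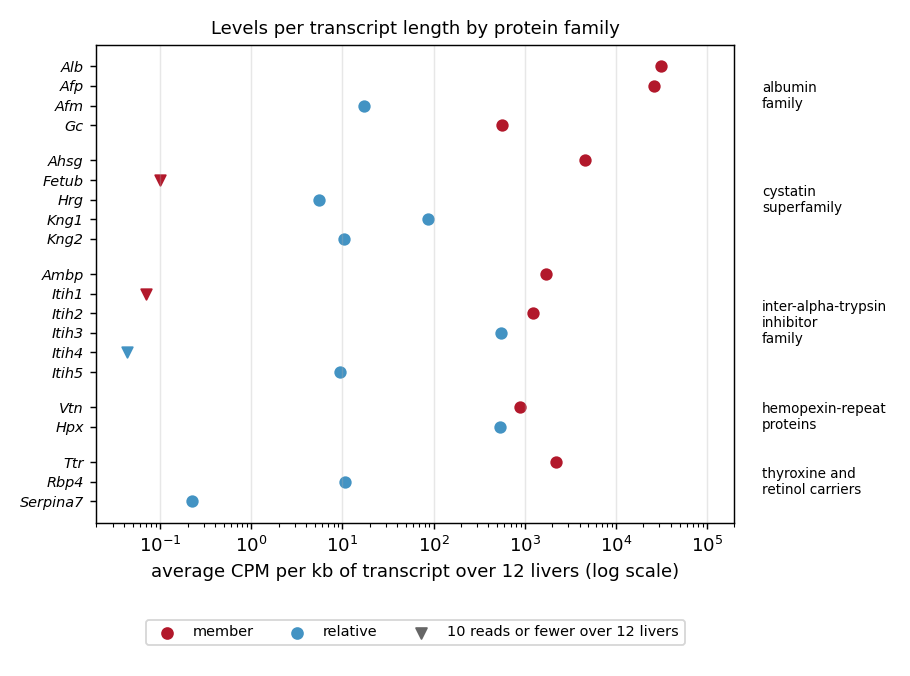
Average CPM per kilobase of transcript over 12 livers (horizontal axis, log scale) for the plasma protein genes (red) and their relatives (blue) by protein family, with triangles for genes with 10 reads or fewer, whose position is mostly the constant added to every gene. The albumin family runs from 31128 CPM for Alb to 17.3 CPM for Afm, and Fetub, Itih1 and Itih4 are the 3 triangles.

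Per kilobase of transcript the order of the 8 abundant genes was Alb, Afp, Ahsg, Ttr, Ambp, Itih2, Vtn and Gc, from 31128 to 561 CPM. Coding length in place of transcript length left all 10 genes in the same places. A low level in this table need not be a low level of RNA, because some genes that every cell uses were also listed with few or no reads. Of 76 cytosolic ribosomal protein genes, 4 had no read (Rps21, Rps25, Rps27a and Rps28) and 7 had 10 reads or fewer, while Rpl4 was at 11.25 log2 CPM. Sequence shared with other genes was not counted for these ribosomal genes, while Fetub and Itih1 shared no 50-base window. Whether they and the ribosomal genes were low for the same reason was not tested. The median of these ribosomal genes was 4.08 log2 CPM, and 10 of them were under 1 CPM. The levels of relatives in that range, such as Afm, Rbp4, Hrg and Kng2, and the folds against them carry the same limit. The ubiquitin gene Ubb had 0 reads and the cyclophilin gene Ppia 2 reads. In the liver itself, Hnf4a, a defining transcription factor of hepatocytes, was listed without reads, beside Alb in the first place. For Fetub and Itih1 it can therefore be said that 1 and 10 reads were listed, and no fold against their abundant relatives is given.

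The number of annotated transcripts was set beside the levels. Of the 8 abundant members, 7 have 1 curated RefSeq transcript and Ahsg has 3, whereas Fetub has 3 and Itih1 has 2. Over 18360 protein-coding genes, the share above 32 CPM was 22.8% for genes with 1 curated transcript, 10.7% for genes with 2 and 4.40% for genes with 6 or more. The share above 1 CPM fell less, from 48.4% for genes with 1 transcript to 42.7% for 2 and 38.6% for 6 or more. The share without reads was highest for genes with 1 transcript, at 24.5%, against 19.2% for 2, 18.2% for 3 and 19.8% for 6 or more. Of the 77 such genes above 1000 CPM, 85.7% had 1 transcript, against 61.5% of all. Among the relatives, Itih4 has 4 and Rbp4 has 2 transcripts, and Hnf4a has 3. Itih3, Afm and Hpx have 1 each, as have some genes with few reads, such as Orm1 with 23. The part of transcript number in the levels of Fetub and Itih1 was not tested.

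**Figure D4:**
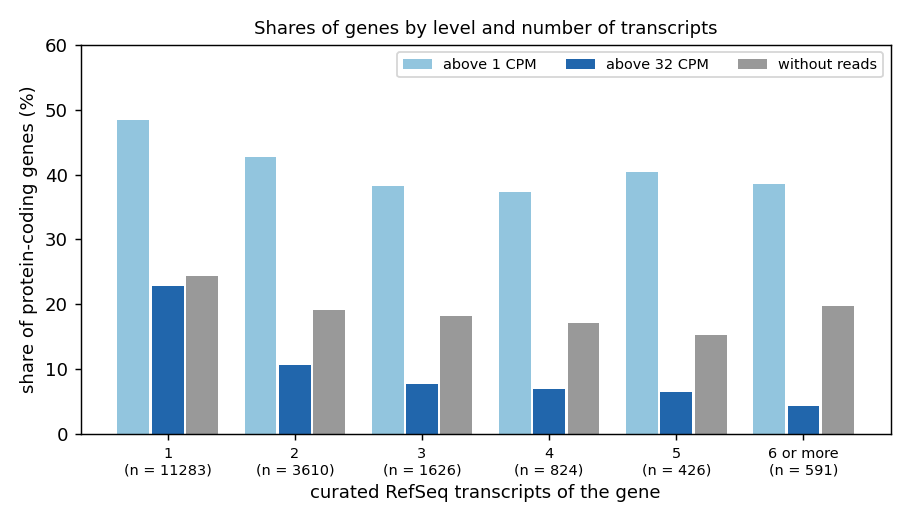
Share of protein-coding genes (%, vertical axis) above 1 CPM, above 32 CPM and without reads, by the number of curated RefSeq transcripts of the gene (horizontal axis, with the number of genes). The share above 32 CPM runs from 22.8% for 1 transcript to 4.40% for 6 or more, while the share without reads is highest for 1 transcript (24.5%).

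Other plasma proteins of hepatocytes were read from a list of 28 genes that also holds Ahsg. Of these, 24 were above 1 CPM and 11 above 1000 CPM. Apoa1, the main protein of high density lipoprotein, was at 4924 CPM per kilobase, between Afp and Ahsg in that order. The complement gene C3 (849 CPM per kilobase), the fibrinogen chain Fgb (626 CPM per kilobase) and the plasminogen gene Plg (577 CPM per kilobase) lay between Vtn and Gc. The other fibrinogen chains of the list were far lower, with Fgg at 83.0 and Fga at 28.7 CPM per kilobase. In the same list Apoc1 had 45 reads and Serpina1a 5 reads over all 12 livers. The genes Serpina1a to Serpina1e are nearly identical copies, so their separate levels are uncertain.

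The tissue label was checked against marker genes. Of 9 hepatocyte markers, 6 were above 1 CPM and their summed level was 10875 CPM. Besides Hnf4a without reads, Serpina1a had 5 reads and Foxa3 130 reads. Of 15 hepatocyte transcription factors, 10 were above 1 CPM, with Cebpa highest at 68.3 CPM per kilobase. Of 11 erythroid markers, 7 had a row, 4 were above 1000 CPM, and the 7 summed to 89762 CPM. Alas2, the lowest of these 7, had 87 reads over all 12 livers (0.704 CPM). The row Beta-s, which RefSeq gives as a synonym of the beta-globin gene Hbb-bs, lay in place 4 with 44564 CPM, and with it the erythroid sum was 134326 CPM. The sums were 1027 CPM for 8 other haematopoietic markers, 368 CPM for 5 endothelial, 522 CPM for 5 stellate and mesenchymal, 316 CPM for 4 macrophage, 22.6 CPM for 5 acinar pancreas and 148 CPM for 4 visceral yolk sac markers. Single genes carried several of these sums, with 142 CPM from Soat2 among the yolk sac, 290 CPM from Vcam1 among the macrophage and 468 CPM from Col1a1 among the mesenchymal markers. The yolk sac markers Amn, Cubn and Rhox5 were at 0.931, 2.97 and 1.95 CPM. Kit had 1 read, and Pecam1, Pdgfrb and Amy2a5 had none. In whole livers the number of hepatocytes and the RNA of each cannot be told apart, so the levels of the plasma protein genes, which summed to 135774 CPM, are those of the whole organ.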

How the data were processed

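PolyA-selected RNA of whole livers was sequenced with a TruSeq v2 kit. Per the labels, the authors used cutadapt 1.2.1, Subread (version 1.3.6-p1, on mm10) and edgeR. The counting tool and the normalization are not given in the sources used here. The deposited table holds the average log2 CPM of each gene over both diets, as 2 columns with the same values, of which 1 was used. Its 8 other columns hold the authors' own comparison of the diets (fold changes, p-values and adjusted p-values) and were not used, so the planned test of the diets was not run and no p-value is given.

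CPM was 2 to the power of the deposited value. The lowest value (-2.71 log2 CPM, or 0.152 CPM) was that of genes without reads. The lowest step above it, shared by 1267 rows and lying from 0.00625 to 0.00644 CPM, was taken as 1 read (median 0.00634), so that the lowest value equals 24.0 reads, or 2.00 per liver. The CPM of all rows summed to 1005170, so the CPM counts reads assigned to these rows and not all mapped reads. By the step of 1 read the 12 libraries held about 158000000 assigned reads, 13100000 per liver on average. Reads of low genes are the level above the lowest value divided by the step, with Poisson intervals (95%) for counting error only. This rule was tested on simulated data with few reads per gene and no spread between livers beyond counting and library size. Higher read numbers, such as that of Foxa3, and spread between livers were outside that test. Levels per kilobase used the principal GENCODE M21 transcript (GRCm38, the build of mm10). Start regions and transcript numbers came from RefSeq (GRCm38.p6), which may differ from the authors' annotation. The members and gene lists were chosen with earlier results of these data known. All members, their listed relatives and the rows next to each member in the order of levels were to be named, though some listed items are not reported here. The ribosomal protein genes, Ubb, Ppia and Beta-s were named after their values were seen. Software was Python 3.11.15 (numpy 2.4.6, pandas 2.3.3, scipy 1.17.1, biopython 1.88, matplotlib 3.10.9).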

Additional observations from a re-analysis of the deposited data

How the results depend on the processing

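The share of the 10 genes in the summed CPM, 13.5%, was 13.6% of the rows above 1 CPM and 13.6% of 1000000 CPM. It was 7.21% without Alb and 1.78% without Alb and Afp, so that it rests on these 2 genes. The median percentile of the 10 genes among rows with reads, 99.8, was 99.9 among all rows, 99.7 among rows above 1 CPM and 99.9 for the 8 genes above 1 CPM. The median level of the 10 genes, 1478 CPM per kilobase of transcript, was 1714 per coding kilobase and 1478 after the lowest value was subtracted. That subtraction exchanged the places of Itih1 and Fetub. Leaving out Alb and Afp together, the 8 genes above 1 CPM and the longest transcript were chosen after seeing the data. Other normalizations, another test, filters on low counts and leaving out livers could not be run on 1 average per gene. No paired analysis was possible because the column used carries no replicate. With 1 read worth 0.00634 CPM, counting limits only the levels of genes with few reads, and the spread between livers is not known for any gene.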
